A study of Homo sapiens with 9 samples.

Results

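The genes described here encode the mitochondrial respiratory chain and ATP synthase from the cell nucleus. They were chosen by name, not by their values: every probe set carrying a single gene symbol that begins with NDUFA, NDUFB, NDUFC, NDUFS or NDUFV (complex I), SDHA to SDHD (complex II), UQCR (complex III), COX4 to COX8 (complex IV) or ATP5 (complex V, the ATP synthase). This gave 94 genes, read by 178 probe sets, out of 19775 genes with a probe set on the array. Where a gene had several, the probe set of highest mean value was used. Of the 94 genes, 92 passed a filter on low values, out of 14863 genes tested. The 92 comprised 33 subunits of complex I, 3 of complex II, 6 of complex III, 15 of complex IV and 18 of complex V, or 75 subunits in all, together with 12 assembly factors and 5 further genes that the names reach (2 pseudogenes and 3 long noncoding RNAs). The 2 genes that did not pass were COX6A2, the form of its subunit used in heart and skeletal muscle, at log2 values of 4.54 to 5.0, and COX8C, a testis form, at 3.15 to 3.52.

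The study asked how signals from osteoblasts, the bone-forming cells, and 2 secreted Wnt antagonists, DKK1 and SOST, change gene expression in PC3 cells, a human prostate cancer line derived from a bone metastasis. After 48 h, PC3 RNA was measured on 9 arrays of the type Affymetrix Human Genome U133 Plus 2.0. There were 4 groups. Untreated PC3 cells grew alone (2 arrays). In the SostKO co-culture (OB SostKO, 2 arrays) the osteoblasts came from Sost knockout mice. In the rhDKK1 co-culture (OB WT + rhDKK1, 2 arrays) they were wild-type and recombinant human DKK1 was added at 100 ng/ml, and in the rhSOST co-culture (OB WT + rhSOST, 3 arrays) recombinant human SOST was added at 100 ng/ml instead. Osteoblasts were primary cells from the calvaria of newborn mouse pups and were kept on inserts above the PC3 cells. PC3 cells with wild-type osteoblasts and no recombinant protein were not analysed here, so in OB WT + rhDKK1 and OB WT + rhSOST the part of the osteoblasts and that of the protein cannot be told apart. Nor can the part of the osteoblasts and that of the Sost knockout be told apart in OB SostKO. Arrays of a group are biological replicates by their labels, which do not say what separated them. The p-values measure the spread between these arrays, whose small number limits the precision.

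Electrons from NADH enter the chain at complex I and those from succinate at complex II. They pass through complex III to complex IV, which reduces oxygen, and the proton gradient built on the way drives the ATP synthase. Complex II is built from nuclear genes alone, while the other complexes combine nuclear subunits with subunits encoded in mitochondrial DNA, and assembly factors put them together without staying in the finished complex. The transcription factors NRF1, GABPA (an ETS factor), YY1 and ESRRA are known to bind promoters of the nuclear genes.

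The promoters show these sites in some of the genes. RefSeq promoters (GRCh38.p14, 250 bases before to 50 after the start) were at hand for 64 of the 75 subunits. On either strand, the NRF1 core, a palindrome of 10 letters, stood in 6.25% of the 64 promoters and in 1.75% of 15843 promoters of protein-coding genes. The looser NRF1 form, which takes any letter at the fifth place of the core and so includes it, stood in 23.4% of the subunit promoters against 8.58%, the ETS site CCGGAAG in 28.1% against 14.2%, the YY1 site AAGATGGCG in 10.9% against 2.74%, and the ESRRA site AAGGTCA in 12.5% against 3.13%. The 250 bases before the start are printed for the 3 subunits that rose in the co-cultures (NDUFS6, NDUFB7 and ATP5MC2) and for 3 that did not pass the test and hold several of these motifs (NDUFB4, COX5B and UQCR11). Capitals mark the motifs that lie whole within these bases.
NDUFS6, chr5:1801157-1801406, plus strand: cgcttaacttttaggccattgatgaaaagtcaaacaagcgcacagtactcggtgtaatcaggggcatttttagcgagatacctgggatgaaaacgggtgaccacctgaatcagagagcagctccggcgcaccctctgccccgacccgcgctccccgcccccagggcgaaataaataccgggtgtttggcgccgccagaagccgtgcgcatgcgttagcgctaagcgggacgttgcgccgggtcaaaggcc
NDUFB7, chr19:14572067-14572316, minus strand: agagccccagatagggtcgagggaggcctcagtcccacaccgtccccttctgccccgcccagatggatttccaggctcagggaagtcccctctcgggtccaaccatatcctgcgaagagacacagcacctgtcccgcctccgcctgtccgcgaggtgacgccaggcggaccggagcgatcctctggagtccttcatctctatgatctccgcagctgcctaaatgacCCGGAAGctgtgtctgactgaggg
ATP5MC2, chr12:53676084-53676333, minus strand: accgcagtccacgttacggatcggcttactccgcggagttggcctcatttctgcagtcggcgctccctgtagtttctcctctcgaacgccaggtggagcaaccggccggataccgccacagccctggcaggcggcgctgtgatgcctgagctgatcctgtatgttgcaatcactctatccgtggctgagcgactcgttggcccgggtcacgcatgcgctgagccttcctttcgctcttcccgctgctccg
NDUFB4, chr3:120596086-120596335, plus strand: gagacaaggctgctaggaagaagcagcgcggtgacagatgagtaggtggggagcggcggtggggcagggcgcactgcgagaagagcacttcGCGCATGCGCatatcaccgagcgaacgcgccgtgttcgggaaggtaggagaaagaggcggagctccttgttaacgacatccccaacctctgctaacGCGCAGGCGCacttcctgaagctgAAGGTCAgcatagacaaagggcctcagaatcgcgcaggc
COX5B, chr2:97645812-97646061, plus strand: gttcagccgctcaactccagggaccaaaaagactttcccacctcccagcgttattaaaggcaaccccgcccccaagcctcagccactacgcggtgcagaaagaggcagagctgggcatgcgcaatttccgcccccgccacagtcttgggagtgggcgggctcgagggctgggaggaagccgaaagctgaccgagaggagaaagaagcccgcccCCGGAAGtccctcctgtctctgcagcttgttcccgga
UQCR11, chr19:1605463-1605712, minus strand: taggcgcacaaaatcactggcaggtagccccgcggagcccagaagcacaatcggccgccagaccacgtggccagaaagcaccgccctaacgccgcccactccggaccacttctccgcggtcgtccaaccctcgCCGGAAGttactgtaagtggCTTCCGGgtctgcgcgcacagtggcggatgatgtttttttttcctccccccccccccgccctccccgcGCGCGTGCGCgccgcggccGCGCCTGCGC
NDUFB4 holds the NRF1 core 159 bases before its start, a looser NRF1 match at 63 bases, an ESRRA site at 39 bases and a further looser match that begins 8 bases before the start and runs past it. UQCR11 holds a pair of ETS sites, at 117 and 97 bases, on opposite strands, and 2 looser NRF1 matches at 29 and 10 bases. COX5B holds an ETS site at 37 bases, and a second one begins 5 bases before the start and runs past it. Of the subunits that rose, NDUFB7 holds an ETS site 24 bases before its start, whereas none of the 5 motifs lies in the printed bases of NDUFS6 or ATP5MC2; an ESRRA site of NDUFS6 lies past its start. NDUFS6 and ATP5MC2 come close to the NRF1 core, each with a run of 9 of its 10 letters. A run of at least 9 letters, looked for after these sequences had been seen, stood in 15.6% of the subunit promoters and 2.76% of all promoters. A match is a run of letters and not a bound site.

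The arrays read PC3 cells. The epithelial genes KRT8, KRT18, KRT19 and EPCAM, with CD44 and VIM, lay between the 97.1th and the 99.4th percentile of probe sets. The prostate genes KLK3 and KLK2, expected to be low in PC3 cells, lay at the 67.4th and 44.6th. The mean log2 value of 9 osteoblast genes was 5.38 to 5.52 on the untreated arrays and 5.35 to 5.49 on the 7 co-culture arrays. Of these genes RUNX2 and COL1A1 lay at the 83.6th and 85th percentile, the others between the 4.5th and the 43.1th. COL1A1 was at 8.92 to 9.13 in untreated cells and 8.68 to 9.77 in co-culture. These probes were designed for human transcripts. Array medians ranged from 5.45 to 5.52. The poly-A control transcripts added to the RNA averaged 10.99 and 11.66 on the untreated arrays and 6.38 to 7.22 on the co-culture arrays, and the 3′ minus 5′ signal of ACTB was 0.50 and 0.88 against 0.99 to 2.06. The hybridisation controls were at 10.67 and 11.35 against 10.32 to 10.60. For each of these 3 measures the groups did not overlap (two-sided exact permutation test, p = 0.0278, the smallest that 2 against 7 arrays can give). The 3′ minus 5′ signal of GAPDH, 0.19 against 0.20 on average, gave p = 0.917 in the same exact test. It was 0.15 and 0.24 on the untreated arrays and 0.12 to 0.42 on the co-culture arrays, highest on the third OB WT + rhSOST array. Every difference from untreated PC3 cells reported below runs along with these control values, and their part in it was not tested.

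In co-culture, the nuclear-encoded respiratory chain stayed close to its level in untreated PC3 cells. Averaged over the 3 co-cultures, the median log2 difference of the 75 subunits was -0.0046, against -0.0039 over all 14863 genes. The middle 50% of the subunits lay between -0.0779 and 0.0720, that of all genes between -0.1204 and 0.1186. A difference of 2-fold or more was found in 0 members and 36 genes. The largest differences of members ran from -0.37 in COX6B2 to 0.45 in NDUFS6. Single co-cultures gave subunit medians of -0.0031 (SostKO), -0.0010 (rhDKK1) and -0.0006 (rhSOST), against -0.0131, -0.0146 and 0.0191 over all genes.

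The intervals give how large a change the spread between these arrays leaves possible. They do not cover the difference in control values between the groups. For 88 of the 92 members (95.7%) the 95% limma interval of the mean difference lay wholly within a 1.5-fold change either way, against 89.1% of all genes. The counts were 88, 88 and 89 members in the SostKO, rhDKK1 and rhSOST co-cultures, against 82.9%, 82.4% and 86.3% of all genes. The median standard error was 0.07 on the log2 scale for members and 0.08 for all genes in the mean of the co-cultures, somewhat tighter for the members. Signal level was not matched: 101 of the 165 kept probe sets of members averaged 10 or more, against 5125 of all 33970. The part of signal level in these shares was not tested.

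Few members passed the test. With the mean of the 3 co-cultures, 5 of 92 members had a limma adjusted p under 0.05, where 10.6% of all genes did; 4 of them were higher in co-culture (6.55% of all genes) and 1 was lower (4.03%). With OB SostKO 1 member rose and 0 fell, where 3.72% of all genes passed (2.07% higher, 1.65% lower). With OB WT + rhSOST 1 rose and 0 fell, where 6.97% of all genes passed (4.87% higher, 2.1% lower). With OB WT + rhDKK1 limma called 0 members, where 4.26% of all genes passed (2.5% higher, 1.76% lower), and the smallest adjusted p of a member was 0.0563. An unadjusted p under 0.05 was found for 13 members with OB SostKO (20.7% of all genes), 11 with OB WT + rhDKK1 (21.3%), 11 with OB WT + rhSOST (23.6%) and 21 with the mean of the co-cultures (27.2%). In the mean of the co-cultures, the arrays of 13 members did not overlap and were higher (15.4% of all genes) and those of 12 did not overlap and were lower (11.3%). The same counts were 23 higher and 25 lower with OB SostKO (23.5% and 24.9%), 27 and 32 with OB WT + rhDKK1 (27% and 28.3%), and 19 and 16 with OB WT + rhSOST (24.7% and 16.3%). By each of these counts the members stood near or below the share of all genes, except for the lower direction with OB WT + rhDKK1, 32 of 92. In the mean of the co-cultures NDUFS6 passed in each of the 7 fits that left out 1 co-culture array, NDUFB7 and NDUFB2-AS1 in 3 of them, and ATP5MC2 and SDHAF3 in 1. The comparisons share the same untreated arrays. When either untreated array was left out, 0 members passed in any of these comparisons, and the share of all genes passing with the mean of the co-cultures fell to 1.77% and 4.1%.

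**Figure D1:**
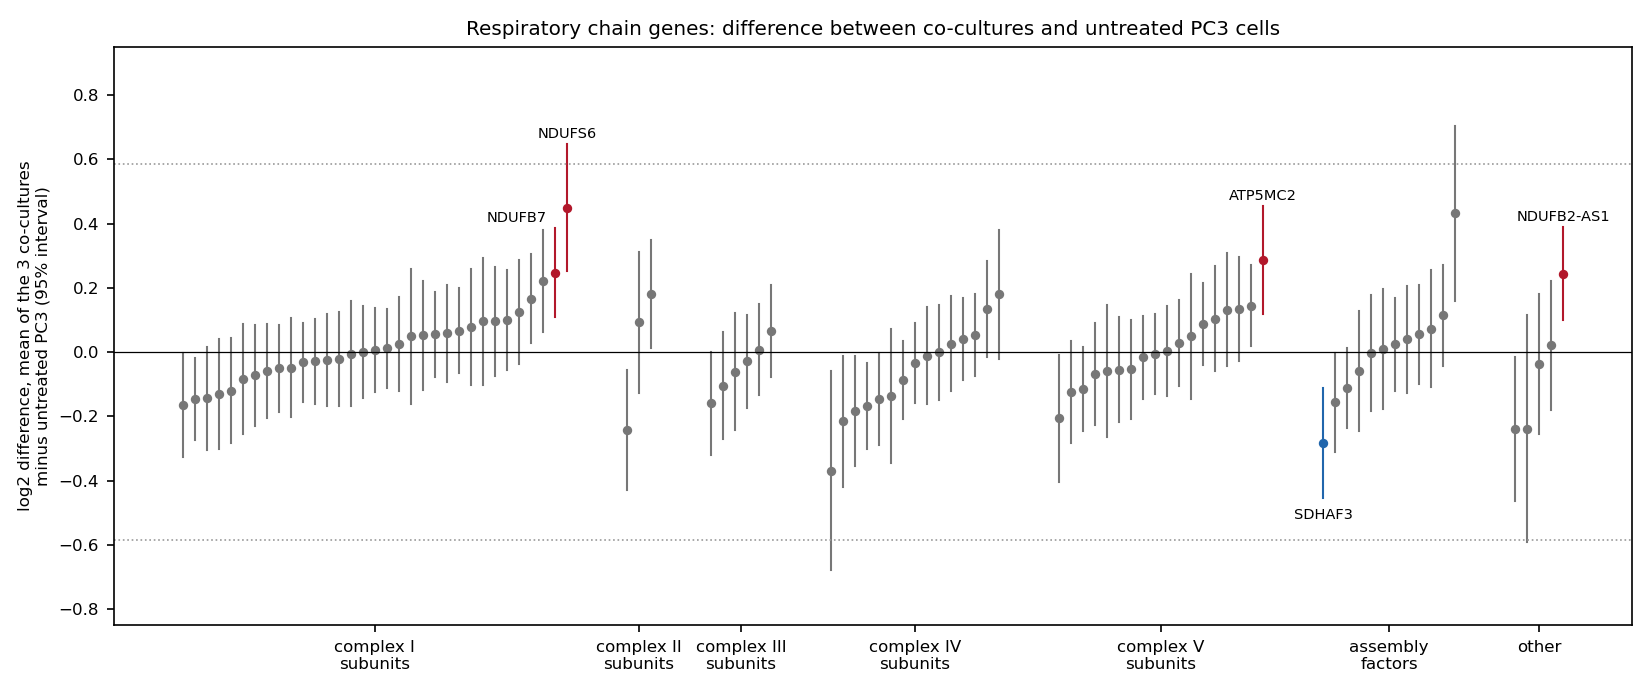
Log2 difference between the mean of the 3 co-cultures and untreated PC3 cells for the 92 members, sorted within complex I to V, assembly factors and other genes; points are estimates, lines 95% limma intervals, dotted lines a 1.5-fold change, red and blue a limma adjusted p under 0.05. The estimates run from -0.37 to 0.45, and 88 of the 92 intervals lie inside the dotted lines.

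NDUFS6, an accessory subunit of complex I that takes part in building its electron-input arm, was the member that rose in single co-cultures. Its log2 values were 12.21 and 12.06 in untreated PC3 cells, 12.78 and 12.49 with OB SostKO, 12.51 and 12.63 with OB WT + rhDKK1, and 12.56, 12.57 and 12.50 with OB WT + rhSOST. All 7 co-culture arrays lay above both untreated arrays, and the co-cultures overlapped each other. The log2 difference was 0.50 (SE 0.11, limma adjusted p = 0.0411) with OB SostKO and 0.41 (SE 0.10, adjusted p = 0.0431) with OB WT + rhSOST. With OB WT + rhDKK1 it was 0.44 and missed the threshold (limma adjusted p = 0.0581). The mean over the 3 co-cultures was 0.45 (SE 0.09, limma adjusted p = 0.0153), or 1.37-fold. One probe set reads NDUFS6, so no second measure of it was at hand. Leaving out an array of a group of 2 leaves 1 array there, whose spread limma then takes to be that of the other groups. The NDUFS6 call with OB SostKO also failed in limma without the first OB SostKO array (0.36, adjusted p = 0.146), and the call with OB WT + rhSOST failed without any one of its own arrays (adjusted p = 0.0614 to 0.130); both failed without either OB WT + rhDKK1 array (adjusted p = 0.0709 to 0.0717), and the OB SostKO call without the first or second OB WT + rhSOST array (adjusted p = 0.0694 and 0.0732).

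NDUFB7, an accessory subunit in the membrane arm of complex I, lay at 11.28 and 11.31 in untreated cells and between 11.49 and 11.64 on the 7 co-culture arrays. The groups did not overlap, and the 2 OB SostKO arrays spanned that range. The mean log2 difference was 0.25 (SE 0.06, limma adjusted p = 0.0350). A dimmer second probe set for NDUFB7 gave -0.13 (SE 0.08), the opposite sign. NDUFC1, a small complex I subunit named after its values were seen, lay at 12.32 and 12.33 in untreated cells and 12.41 to 12.64 in co-culture, without overlap, and its difference of 0.22 (SE 0.07) did not pass (limma adjusted p = 0.0811).

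ATP5MC2 encodes the c subunit that forms the rotor ring of the ATP synthase, a protein made from 3 nuclear genes. Its values were 11.81 and 11.59 in untreated cells, 12.07 and 11.96 with OB SostKO, 11.96 and 12.03 with OB WT + rhDKK1, and 11.96, 11.92 and 12.01 with OB WT + rhSOST. The untreated arrays differed from each other by more than any 2 arrays of a co-culture, and all co-culture arrays lay above both. The mean log2 difference was 0.29 (SE 0.07, limma adjusted p = 0.0429). A dimmer second probe set of ATP5MC2 gave -0.17 (SE 0.16). The other c-subunit genes ATP5MC1 and ATP5MC3, read by their own brightest probe sets, gave 0.05 (SE 0.09) and 0.09 (SE 0.06), with limma adjusted p = 0.753 and 0.360.

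NDUFB2-AS1, a long noncoding RNA transcribed antisense to the complex I gene NDUFB2, also rose. It lay at 6.06 and 6.02 in untreated cells, 6.46 and 6.28 with OB SostKO and 6.24 to 6.25 on the other 5 co-culture arrays. The mean log2 difference was 0.24 (SE 0.06, limma adjusted p = 0.0428), while NDUFB2 itself gave 0.12 (SE 0.07, adjusted p = 0.30). The member that fell was SDHAF3, an assembly factor for the iron-sulfur subunit of complex II. SDHAF3 lay at 9.56 and 9.43 in untreated cells and between 9.12 and 9.34 in co-culture, without overlap. Its mean log2 difference was -0.28 (SE 0.08, limma adjusted p = 0.0472).

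**Figure D2:**
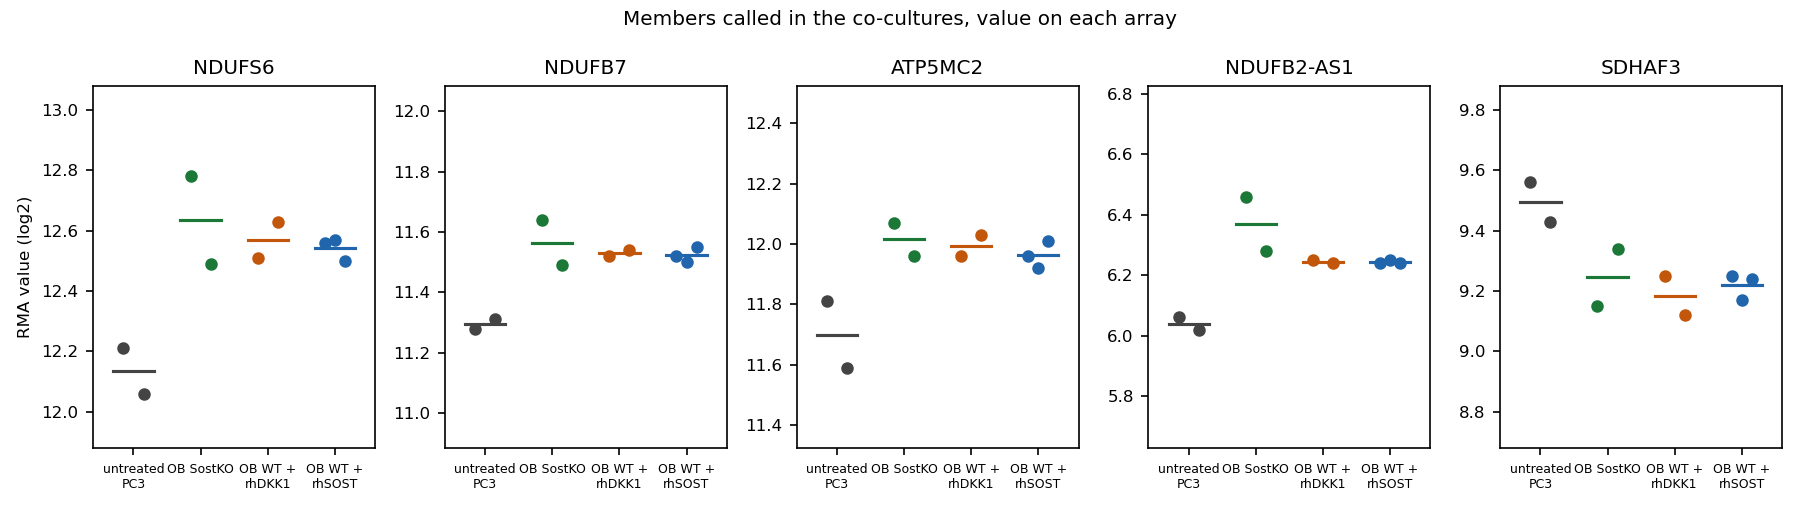
Log2 RMA value on each of the 9 arrays for the 5 members with a limma adjusted p under 0.05 for the mean of the co-cultures; points are arrays, bars group means, and each panel spans the same height of 1.2 log2 units. All 7 co-culture arrays lie above both untreated arrays for NDUFS6, NDUFB7, ATP5MC2 and NDUFB2-AS1, and below both for SDHAF3.

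By complex, differences stood on both sides of 0. Complex I had 18 of 33 subunits above 0 and a median of 0.0079, complex II 2 of 3 and 0.0921, and complex III 2 of 6 and -0.0447. Complex IV had 5 of 15 above 0 and a median of -0.0336, and complex V 9 of 18 and -0.0007. Over all genes 49% were above 0. Limma called 2 subunits in complex I, 1 in complex V and 0 in complexes II, III and IV, whose smallest adjusted p were 0.0964, 0.186 and 0.104; 10.6% of all genes were called. An unadjusted p under 0.05 was found for 16 of the 75 subunits, 7 higher and 9 lower, and for 27.2% of all genes.

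The core subunits named here did not pass the test in any co-culture. NDUFV1, where NADH is oxidised, lay at 11.77 and 11.86 in untreated cells and 11.59 to 11.81 in co-culture, a mean log2 difference of -0.12 (SE 0.07, limma adjusted p = 0.317). NDUFS1, the large iron-sulfur subunit beside it, gave 0.05 (SE 0.09, adjusted p = 0.770). SDHA, the flavoprotein of complex II that oxidises succinate, lay at 11.14 and 11.15 in untreated cells and 11.21 to 11.41 in co-culture. For SDHA the groups did not overlap, and the difference of 0.18 (SE 0.07) had a limma adjusted p of 0.153. SDHD, one of the membrane anchors of complex II, lay at 11.71 and 11.67 in untreated cells and 11.26 to 11.53 in co-culture, a difference of -0.24 (SE 0.08, adjusted p = 0.0964). It was chosen after its values were seen. These 2 subunits of one complex thus gave estimates of opposite sign, neither past the threshold. UQCRC1, a core subunit of complex III, gave -0.06 (SE 0.08) and overlapping groups.

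In complex V, ATP5F1A and ATP5F1B form the catalytic head. ATP5F1A lay at 13.36 and 13.30 in untreated cells and 13.43 to 13.51 in co-culture, without overlap, a log2 difference of 0.14 (SE 0.06, limma adjusted p = 0.136). ATP5F1B gave -0.06 (SE 0.07, adjusted p = 0.664) with overlapping groups. ATP5F1C, the central stalk that turns within the head, gave -0.12 (SE 0.07, adjusted p = 0.294) by its brightest probe set.

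Complex IV has subunits with forms that differ between tissues, and none of these forms passed the test. COX4I1, the general form of the regulatory subunit, lay at 13.39 and 13.36 in untreated cells and 13.28 to 13.47 in co-culture, a difference of -0.01 (SE 0.07). COX4I2, the form known for lung and for low oxygen, lay at 7.11 and 6.94 in untreated cells and 6.67 to 6.93 in co-culture, a difference of -0.22 (SE 0.09, limma adjusted p = 0.161). COX6B1 gave -0.15 (SE 0.06, adjusted p = 0.175) and its testis form COX6B2 -0.37 (SE 0.14, adjusted p = 0.120). COX6B2 rested on the first untreated array, at 6.17, since the second, at 5.71, lay within the co-culture range of 5.42 to 5.80.

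COX7A1, the heart and muscle form, gave -0.14 (SE 0.09), COX7A2 -0.18 (SE 0.08) and COX7A2L, which takes part in joining complexes III and IV, 0.03 (SE 0.07), with limma adjusted p = 0.379, 0.155 and 0.827. COX7A1 was dim, at 4.73 to 5.07, and gave -0.26 without the first and -0.01 without the second untreated array. COX6A1 gave -0.09 (SE 0.05), COX5A 0.04 (SE 0.06) and COX8A 0.13 (SE 0.07), and none of them passed. The subunit now named COXFA4 (older name NDUFA4) and its low-oxygen relative COXFA4L2 (older name NDUFA4L2) are no members under their current symbols. They gave -0.11 (SE 0.08) and 0.13 (SE 0.10), with limma adjusted p = 0.397 and 0.474 over all probe sets.

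Among the 12 assembly factors, 0 rose and 1, SDHAF3, fell, and the median was 0.0168. SDHAF4, which helps the flavoprotein of complex II into its partner, had a mean log2 difference of 0.43 (SE 0.12, limma adjusted p = 0.0541). Its values were 7.56 and 7.49 in untreated cells, 7.91 and 8.0 with OB SostKO, 8.20 and 8.08 with OB WT + rhDKK1, and 7.96, 7.91 and 7.48 with OB WT + rhSOST. The third OB WT + rhSOST array lay with the untreated arrays and the other 6 co-culture arrays lay above. Without that array SDHAF4 passed in each comparison with untreated cells. SDHAF4 was singled out after its values were seen. The 8 NDUFAF genes, which assemble complex I, gave from -0.16 (NDUFAF4) to 0.11 (NDUFAF1) and none passed.

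The co-cultures were also compared with each other. In the 3 direct comparisons limma called 0 of 92 members and 0 of 14863 genes, that is 0% of all genes in each. At an unadjusted p under 0.05 there were 0 members for OB SostKO against OB WT + rhSOST, 1 for OB WT + rhDKK1 against OB WT + rhSOST and 0 for OB SostKO against OB WT + rhDKK1, where 4.08%, 2.57% and 0.828% of all genes had one. The 1 member was SDHAF4, 0.35 higher with OB WT + rhDKK1 than with OB WT + rhSOST (SE 0.14, limma adjusted p = 1.0). Without the third OB WT + rhSOST array, the low one described above, that difference was 0.20 (SE 0.08, limma adjusted p = 1.0). The 95% intervals of 92, 91 and 92 members lay within a 1.5-fold change, against 92.7%, 94.2% and 95.2% of all genes.

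In OB SostKO against OB WT + rhSOST the smallest p belonged to NDUFB2-AS1, with a log2 difference of 0.12 (SE 0.07, 95% interval -0.04 to 0.29), and NDUFAF8, an assembly factor, with 0.14 (SE 0.08, -0.05 to 0.33). The same 2 genes led in OB SostKO against OB WT + rhDKK1, with 0.12 (SE 0.08) and 0.12 (SE 0.09). NDUFA3, a membrane-arm subunit of complex I, gave -0.13 (SE 0.08) in OB WT + rhDKK1 against OB WT + rhSOST. Their limma adjusted p-values were between 0.80 and 1.0.

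The mitochondrially encoded partners of these subunits differed far more. Of 7 read by a kept probe set, limma called 1 higher and 4 lower in the mean of the co-cultures, where 10.6% of all genes passed, and 6 of 7 lay below 0, with a median log2 difference of -0.64. COX3, a core subunit of complex IV, lay at 9.34 and 9.14 in untreated cells and 7.47 to 7.73 on the 7 co-culture arrays, a difference of -1.64 (SE 0.09, limma adjusted p = 0.000102). The probe set standing for COX3 averaged 7.97, against 13.40 to 14.38 for COX1, COX2, ND2, ND4 and ATP6 and 9.03 for ND6. Which transcripts the COX3 probe set reads was not tested. COX1, the catalytic subunit of complex IV, lay at 13.90 and 14.12 against 13.26 to 13.50, a difference of -0.65 (SE 0.10, adjusted p = 0.00655). ATP6, the proton channel of the ATP synthase, gave -0.82 (SE 0.19) and ND2, a complex I subunit, -0.64 (SE 0.16), with limma adjusted p = 0.0276 and 0.0407. COX2 and ND4 gave -0.20 (SE 0.07) and -0.39 (SE 0.15) and did not pass.

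ND6, the complex I subunit encoded on the other strand of mitochondrial DNA, went the other way. It lay at 7.57 and 6.64 in untreated cells, 9.83 and 9.06 with OB SostKO, 9.50 and 9.96 with OB WT + rhDKK1, and 9.48, 9.69 and 9.54 with OB WT + rhSOST. Its mean log2 difference was 2.48 (SE 0.26, limma adjusted p = 0.00152), and it passed in each co-culture, as did COX3 and COX1 in the lower direction. Of the 75 nuclear subunits, 36 lay above 0 and 39 below in the same comparison. The difference between the nuclear and the mitochondrial group was not tested, and the control values given above separate the same arrays.

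**Figure D3:**
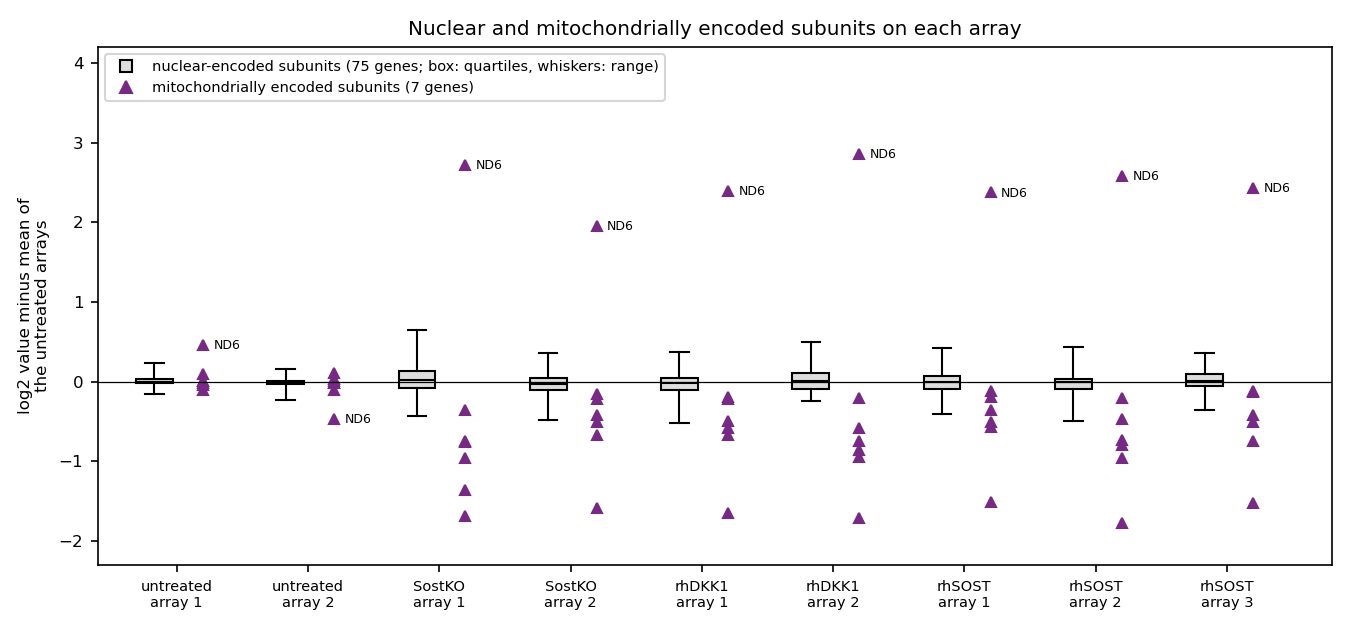
Log2 value on each of the 9 arrays minus the mean of the 2 untreated arrays; boxes show the quartiles and whiskers the range of the 75 nuclear-encoded subunits, triangles the 7 mitochondrially encoded subunits. Boxes stay near 0 on every array, while on the 7 co-culture arrays ND6 lies far above and the other 6 triangles below.

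The rest of the pathway was read by lists, whose counts stand against the 10.6% of all genes called (6.55% higher, 4.03% lower) in the mean of the co-cultures. Of 15 enzymes of the TCA cycle, which feeds the chain, limma called 0 in the mean of the co-cultures, with a median of 0.0106; 3 had an unadjusted p under 0.05, 1 higher and 2 lower. Of 75 mitochondrial ribosomal proteins, which make the mitochondrially encoded subunits, 2 rose and 3 fell, with a median of -0.0055. MRPS9 gave 0.39 and MRPL24 0.26, and MRPL44 gave -0.36, MRPL37 -0.33 and MRPL52 -0.27. Of 38 further assembly factors limma called 1 higher and 1 lower, with a median of -0.0431, against -0.0039 over all genes. The lower one, PET117, gave -0.28 (SE 0.06). The higher one was COX17, a copper chaperone for complex IV, read by a dim probe set at 4.17 and 4.09 in untreated cells and 4.59 to 5.06 in co-culture. It reached the filter's percentile, 4.82 to 4.91 across arrays, on 0 untreated and 2 co-culture arrays, so it passed the filter through the higher group and no size is given for its difference.

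Of 19 electron carriers and related genes 1 rose and 1 fell, with a median of 0.0627. COQ8A, needed to make coenzyme Q, lay at 9.22 and 9.39 in untreated cells and 9.64 to 9.82 in co-culture, a log2 difference of 0.43 (SE 0.08, limma adjusted p = 0.0128). ETFA, which passes electrons from fatty acid oxidation towards coenzyme Q, lay at 11.33 and 11.34 against 10.95 to 11.08, a difference of -0.31 (SE 0.05, adjusted p = 0.0107). Of 21 regulators of mitochondrial biogenesis 2 rose and 0 fell, with a median of -0.0560. POLG2, the accessory subunit of the mitochondrial DNA polymerase, gave 0.45 (SE 0.06, adjusted p = 0.00408) and TFB1M, which modifies mitochondrial ribosomal RNA, gave 0.40 (SE 0.10, adjusted p = 0.0398) in limma. The factors whose motifs were searched did not pass: NRF1 gave -0.06 (SE 0.07), GABPA 0.35 (SE 0.18), YY1 -0.20 (SE 0.06) and ESRRA -0.11 (SE 0.12), with limma adjusted p of 0.606, 0.240, 0.0738 and 0.586.

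For some members the probe set decided the value. Of the 92 members, 45 had several kept probe sets, and in 26 of the 45 these gave log2 differences of both signs; the median distance between the highest and the lowest was 0.17. In 5 genes they lay over 0.5 apart: ATP5F1C (0.94), NDUFB8 (0.78), NDUFS1 (0.60), UQCRC2 and COX4I1. In these 5 genes the brightest probe set gave between -0.15 and 0.05 and a dimmer one a higher value. The COX4I1 probe set with the highest difference reached the filter's percentile on 0 untreated and 5 co-culture arrays, and that of UQCRC2 on 1 and 6. The filter asked for 2 arrays. Both probe sets thus passed the filter through the higher group, and no size is given for the COX4I1 and UQCRC2 distances. A dim probe set of ATP5PO, a gene counted among the 26, reached that percentile on 0 untreated and 4 co-culture arrays. When all 33970 kept probe sets were tested one by one, limma called 4 probe sets of members in the mean of the co-cultures, all higher, where 7.19% of all probe sets passed; they read ATP5F1C, NDUFB8, ATP5MC3 and NDUFS6.

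Among the genes with a probe set that passed, ATP5F1C had the widest spread. Its dimmest probe set lay at 5.40 and 5.45 in untreated cells, 6.01 and 6.12 with OB SostKO, 6.10 and 6.10 with OB WT + rhDKK1, and 6.21, 6.33 and 6.47 with OB WT + rhSOST. All co-culture arrays lay above the untreated ones. Its log2 difference was 0.74 (SE 0.08, limma adjusted p = 0.00411 over all probe sets), while the 3 brighter probe sets of ATP5F1C lay between -0.20 and -0.07.

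NDUFB8, a membrane-arm subunit of complex I, showed the same in its dimmest probe set, at 6.26 and 6.38 in untreated cells and 6.62 to 7.26 in co-culture. That difference was 0.63 (SE 0.11, limma adjusted p = 0.0167), against -0.15 by the brightest NDUFB8 probe set. In ATP5MC3 the dimmest probe set gave 0.29 (SE 0.06, limma adjusted p = 0.0358) against 0.09 and 0.06. UQCRC2, a core subunit of complex III, had its dimmest probe set at 4.72 and 5.21 in untreated cells and 5.67 to 6.33 on 6 co-culture arrays, while the third OB WT + rhSOST array lay at 4.70. This UQCRC2 probe set passed the filter through the higher group, so no size is given for its difference, which did not pass the test. In NDUFS1 the probe set with the highest difference, 0.54 (SE 0.35), was also lowest on that array, at 7.25. Which transcripts these dimmer probe sets read was not tested.

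**Figure D4:**
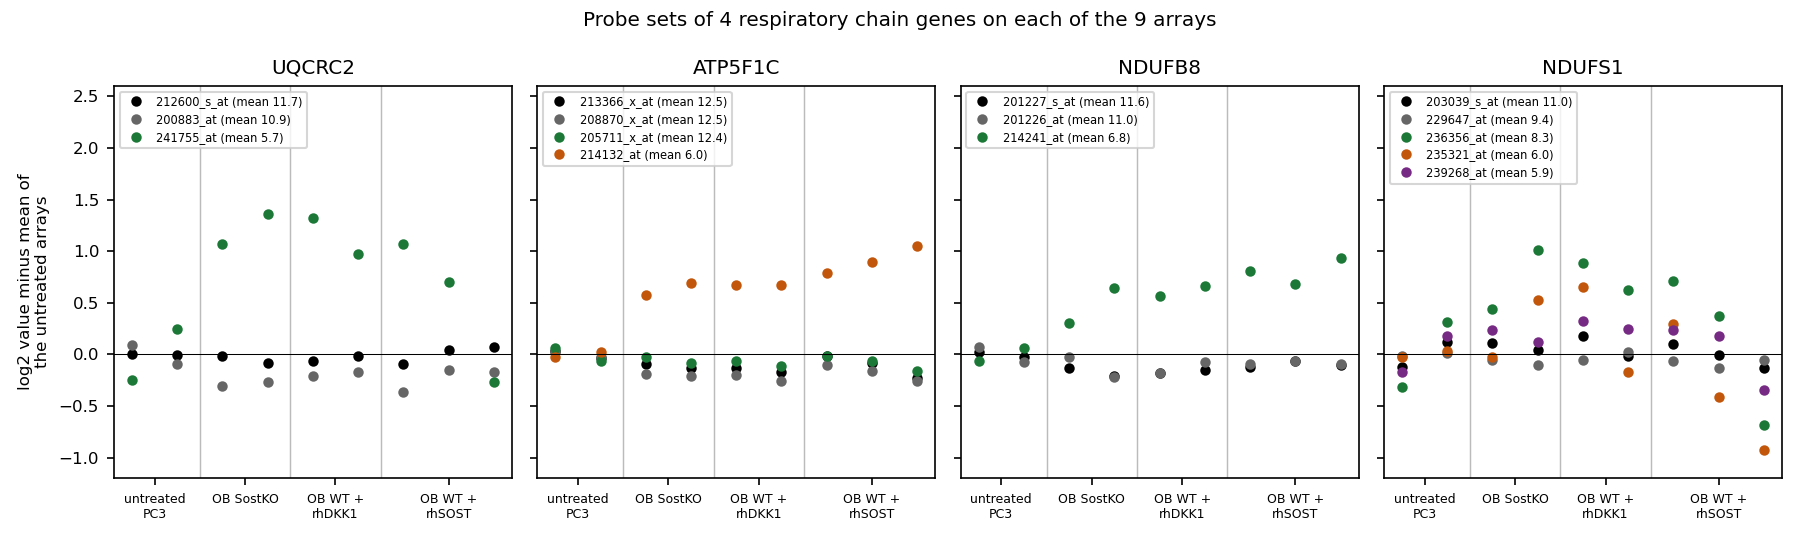
Log2 value on each of the 9 arrays minus the mean of the 2 untreated arrays for every kept probe set of UQCRC2, ATP5F1C, NDUFB8 and NDUFS1; colours are probe sets, with their mean log2 value over the arrays in the legend. The brightest probe sets stay near 0, while the dimmest ones of ATP5F1C and NDUFB8 lie above 0 on all 7 co-culture arrays and that of UQCRC2 on 6 of them. The dimmest UQCRC2 probe set passed the filter through the higher group.

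Some subunits are read by probe sets that carry several gene symbols and were left out. Of these, the bright probe sets shared by RPL10 and NDUFS5, by UQCRH and UQCRHL, and by NDUFC2 and NDUFC2-KCTD14 gave mean log2 differences of 0.06, -0.02 and 0.07. The bright probe set shared by ATP5MF and ARMC2-AS1 gave -0.23 (SE 0.08, limma adjusted p = 0.127), where the dim one that stood for ATP5MF gave -0.06 (SE 0.09). None of them passed.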

How the data were processed

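Arrays of 4 groups were compared: 2, 2, 2 and 3 arrays of PC3 cells, with groups and replicate numbers as labelled. The authors deposited log2 values after RMA, a method that the submitters' processing notes name; its software and version are not given in the sources used here. RMA scales all arrays to one distribution, so a shift shared by all genes cannot be seen.

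The 54675 probe sets include 62 controls, which were dropped. A probe set was kept if on 2 or more arrays its value lay at or above that array's 40th percentile, which left 33970. Symbols came from the platform annotation updated to RefSeq; 18 probe sets of these genes carried several symbols and were left out. The brightest kept probe set with 1 symbol stood for its gene. Group means were fitted over all 14863 genes and all 9 arrays with limma 3.58.1 (lmFit, eBayes; R 4.3.3), with Benjamini-Hochberg adjustment over all genes and a threshold of 0.05; the methods were tested on simulated data. Intervals are 95% limma intervals. Files and labels gave no scan date or batch.

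The genes named are all called members, a set of core subunits and isoforms, the 2 members of smallest p in every direct comparison and the genes whose probe sets differed most; others are marked as chosen after their values were seen, or complete a count. Members, lists and tests were chosen with earlier results of these data known. Alternatives tried were the filter, cyclic loess, the mean of or every probe set, other sets of samples, a replicate block, a fold limit and the methods' general tests.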

Additional observations from a re-analysis of the deposited data

How the results depend on the processing

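In limma, the counts of members called in comparisons with untreated PC3 cells rested on few arrays, as did those of all genes. Leaving out 1 of the 3 OB WT + rhSOST arrays gave 0 to 2 members with OB SostKO (2.27% to 5.3% of all genes). It gave 0 to 1 with OB WT + rhDKK1 (2.62% to 5.54%) and 0 to 1 with OB WT + rhSOST (2.48% to 6.51%). The mean of the co-cultures gave 1 to 5 members (6.8% to 13.3%). Without the first or second OB WT + rhSOST array, NDUFS6 was the 1 member left there (8.09% and 6.8%). With any 1 of the 9 arrays left out, the subunit median with OB SostKO ranged from -0.0274 to 0.0208. That of the mean of the co-cultures ranged from -0.0109 to 0.0016. In the mean of the co-cultures NDUFS6 passed under 12 of 14 alternatives, failing when either untreated array was left out (adjusted p = 0.0744 and 0.111), and ATP5MC2 and SDHAF3 each passed under 3 of 14. Without the filter limma called 0, 0 and 2 members with OB SostKO, OB WT + rhSOST and the mean (2.2%, 4.25% and 7.39% of all genes), where more genes were tested. A 60th percentile filter gave 2 with OB SostKO (5.89%) and 2 in the rhDKK1 co-culture (6.46%). It gave 1 with OB WT + rhSOST (9.51%) and 6 with the mean (14%). A limit of 1.5-fold left 0 with OB SostKO, 0 with OB WT + rhSOST and 0 with the mean. Fitting only the groups compared left 0 members and 0 of all 14863 genes with OB SostKO, and 0 members with OB WT + rhDKK1 (0.39% of all genes). With OB WT + rhSOST it left NDUFS6 (limma adjusted p = 0.046), where 4.09% of all genes passed. Such a fit was not possible for the mean, which holds all groups.

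Averaging the kept probe sets of a gene left 2 members called in the mean of the co-cultures (8.65% of all genes) and moved the subunit median to 0.0274 with OB WT + rhSOST and 0.0243 in the mean. It turned the sign of ATP5F1C (0.0861), NDUFB8 (0.12) and UQCRC2 (0.23), since dimmer probe sets then count alike. The sign of COX4I1 turned as well. The averages of UQCRC2 and COX4I1 each hold a probe set that passed the filter through the higher group. For UQCRC2 the turn rests on that probe set, since its brightest probe set gave -0.03 and its lowest -0.23. The UQCRC2 average is therefore not read as the size of a difference. Testing every probe set gave 1 member in the rhDKK1 co-culture (1.75% of probe sets) and 2 in the rhSOST co-culture (3.99%). COX4I1 also turned sign with cyclic loess (0.0038) and between arrays left out (-0.0423 to 0.0199), as did NDUFS1 (-0.0681 to 0.167, below 0 without the first untreated array); neither passed the test under any of these, and the cause was not tested.

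With the replicate number as a block, limma called 0 members with OB SostKO, 1 with OB WT + rhDKK1 (SDHAF4), 0 with OB WT + rhSOST and 2 with the mean (NDUFS6 and SDHAF4), where 2.33%, 2.73%, 3.28% and 8.98% of all genes passed. Same-numbered arrays deviated together between some groups and oppositely between others (r from -0.57 to 0.31 over genes), so the numbers were not taken as pairs. The study's general tests, unadjusted, gave 8, 7 and 5 members by ANOVA with Tukey's test and 9, 8 and 7 by the methods' paired t-test in the SostKO, rhDKK1 and rhSOST co-cultures, where 9.09%, 9.48% and 10.9% and 8.26%, 8.23% and 8.61% of all genes passed. After Benjamini-Hochberg adjustment they gave 0 in each. For the direct comparisons of SostKO with rhSOST, rhDKK1 with rhSOST and SostKO with rhDKK1 co-cultures the paired test gave 1, 6 and 3 unadjusted (3.23%, 4.6% and 2.19% of all genes) and Tukey's test 1 for the first of them (0.828%). The number of members within a 1.5-fold change stayed between 87 and 89 when single arrays were left out.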
